A study of Mus musculus with 21 samples.

Results

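Spo11 and the 6 genes described with it lie side by side on mouse chromosome 2: Bmp7 before Spo11, then Spo11, Rae1, Rbm38, Ctcfl, Pck1 and Zbp1. They were selected by this position and with earlier results of these data known, and are 7 of the 54232 genes in the count table. The differences between libraries with and without Spo11-Cre are treated as the values on which they were chosen, so that contrast is described for them without a test. Of the 7 genes, 4 had a count above 0 in at least 3 of the 17 libraries compared in the models (Rae1, Rbm38, Bmp7 and Zbp1), Pck1 had a few counts in 2 libraries, and Spo11 and Ctcfl had none in any library.

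The data are poly(A) RNA sequencing of fully grown oocytes at the germinal vesicle stage, in 21 libraries of 3 oocytes each, from mice on a C57BL/6 background aged 3 to 4 months and primed with a gonadotropin preparation 48 h before collection. The groups differed in the Kif11 gene, which encodes a spindle kinesin, and in a Cre recombinase transgene. The wt/fl oocytes (4 libraries) carried 1 wild-type and 1 floxed Kif11 allele and no Cre, and the fl/del oocytes (4 libraries) carried a floxed and a constitutively deleted allele and no Cre. The same genotypes with Spo11-Cre, which acts from early meiotic prophase, gave wt/fl Spo11-Cre (5 libraries) and fl/del Spo11-Cre (4 libraries). A further pair of groups carried 2 floxed alleles and a Cre driven by the promoter of another oocyte gene, namely fl/fl Gdf9-Cre (2 libraries) and fl/fl Zp3-Cre (2 libraries). The floxed allele was present in all 6 groups. Each mouse gave 1 or 2 libraries, and the names of the wt/fl, fl/del, wt/fl Spo11-Cre and fl/del Spo11-Cre libraries hold 2, 2, 3 and 2 different prefixes. The names of the fl/fl libraries hold the driver in that place, so how many mice stand behind them is not known. The letter after the prefix is A in all wt/fl and fl/del libraries and B or C in all those with Spo11-Cre. What the letter stands for is not stated, and it cannot be told apart from Spo11-Cre. The p-values thus measure the spread between libraries, some of which may share a mouse. How the Spo11-Cre transgene is built and where it is inserted is not given in the sources used here.

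Spo11 encodes the topoisomerase-like protein that makes the DNA double-strand breaks of meiotic recombination, early in prophase and long before the fully grown stage. Its neighbours have unrelated roles. Rae1 encodes an mRNA export factor that binds the nucleoporin NUP98 and also takes part in spindle assembly and the mitotic checkpoint. Rbm38 encodes an RNA-binding protein that is induced by p53 and acts on the stability and translation of target mRNAs. Bmp7 encodes a secreted bone morphogenetic protein, Ctcfl the germ cell paralogue of the chromatin factor CTCF, Pck1 the cytosolic enzyme of gluconeogenesis, and Zbp1 a sensor of Z-form nucleic acids. Full-grown oocytes are largely silent in transcription, so their mRNA is mostly stored from growth.

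On GRCm38, the build of the files, the 7 genes span 350912 bp. Bmp7 (ENSMUSG00000008999) lies at chr2:172868012-172940321 on the minus strand and Spo11 (ENSMUSG00000005883) at chr2:172977700-172993576 on the plus strand. Rae1 (ENSMUSG00000027509, chr2:173000117-173015739, plus strand) begins 6540 bp past the end of Spo11, and Rbm38 (ENSMUSG00000027510, chr2:173020498-173034734, plus strand) begins 4758 bp past the end of Rae1. Ctcfl (ENSMUSG00000070495, chr2:173093609-173119525, minus strand) follows after a gap of 58874 bp. Pck1 (ENSMUSG00000027513) lies at chr2:173153048-173159273 on the plus strand and Zbp1 (ENSMUSG00000027514) at chr2:173206612-173218923 on the minus strand. The annotation holds 10 genes in this span, and the 3 that are not described here were at 0 in all 21 libraries. Of those 3, Gm20490 and Gm14453 lie on the other strand of Rbm38; the libraries were unstranded, so reads from the strands of Rbm38 cannot be told apart.

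Rae1 and Rbm38 were the only genes of the 7 with more than 4 CPM (a gene's count scaled to a library total of 1000000) in any library, and the 250 bases before the RefSeq start of each are shown because the rest of the results turns on this pair. The sequences are those of RefSeq on GRCm38.p6, plus strand, and 3 of the 7 genes have a promoter in the table used. Capitals mark a GC box (GGGCGG), searched on both strands.
Rae1 chr2:172999867-173000116: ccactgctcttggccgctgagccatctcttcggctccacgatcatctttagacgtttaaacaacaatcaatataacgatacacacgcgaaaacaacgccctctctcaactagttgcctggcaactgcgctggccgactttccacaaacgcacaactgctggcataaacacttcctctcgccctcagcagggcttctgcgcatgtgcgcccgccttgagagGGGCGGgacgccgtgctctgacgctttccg
Rbm38 chr2:173021652-173021901: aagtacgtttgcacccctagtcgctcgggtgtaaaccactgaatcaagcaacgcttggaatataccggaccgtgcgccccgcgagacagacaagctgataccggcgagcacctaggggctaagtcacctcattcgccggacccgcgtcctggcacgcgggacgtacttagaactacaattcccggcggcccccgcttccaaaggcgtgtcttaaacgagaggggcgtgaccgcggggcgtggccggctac
The Rae1 sequence had 56% G and C, 20 CpG dinucleotides and 1 GC box, and the Rbm38 sequence had 61.6% G and C, 28 CpG dinucleotides and no GC box. The median over 32851 mouse promoters of this length was 52.4% G and C, and 32.7% of them held a GC box. Neither sequence held CCAAT (in 33.8% of all promoters), CCGGAA (12.0%), TATAAA (12.4%), GCGCATGC (2.26%) or CACGTG (6.02%) on either strand. A match of letters is a description and not a binding site. The RefSeq start of Rbm38 lies inside the gene as the files' annotation bounds it, so the sequence is that of an internal start.

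Total counts were between 7205010 and 18454549 per library, and the fl/fl libraries held between 7801470 and 10759741. A count of 0 in a library allows a level of up to 0.163 to 0.416 CPM, counting error only. In a second deposited count table the median gene had 1 count for each 1.95 of the all-exon table. The totals of that second table thus give wider limits of 0.317 to 0.813 CPM, and which of the tables counts independent fragments is not stated. For Rae1 the ratio of counts was 1.93 to 1.98 over the libraries, but for Rbm38 it was 1.63 to 1.78. The CPM of Rbm38 was thus higher in the second table in each library. All 12 oocyte marker genes were above 0 in all 21 libraries, with a summed level of 21611 to 28829 CPM. The 12 markers of granulosa and cumulus cells summed to between 71.6 and 124 CPM, from 83.4 to 123 CPM in wt/fl and from 71.6 to 113 CPM in the Spo11-Cre libraries, mostly Cyp19a1 and Nr5a2. Kitl was at 1.74 to 7.42 CPM in all 21 libraries, Fshr (up to 2.69 CPM) was at 0 in 2 and Inha (up to 5.39 CPM) at 0 in 12 of them, and the transcription factor genes Foxl2 and Wt1 were at 0 in all 21. The 6 theca and stroma markers summed to between 1.12 and 8.36 CPM, and the 3 blood cell markers to at most 0.256 CPM. Kif11, the targeted gene, had a mean over all exons of 34.5 ± 8.46 CPM in wt/fl (SD, n = 4), 24.6 ± 5.04 in wt/fl Spo11-Cre (n = 5), 11.9 ± 3.06 in fl/del (n = 4), 1.78 ± 0.685 in fl/del Spo11-Cre (n = 4), 5.0 ± 0.153 with Gdf9-Cre (n = 2) and 6.11 ± 2.60 with Zp3-Cre (n = 2).

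Rae1 mRNA stood at a higher level in each of the 9 Spo11-Cre libraries than in each of the 12 other libraries. In wt/fl the 4 libraries had 216, 205, 215 and 192 CPM, a mean of 207 ± 11.4 (SD, n = 4). In wt/fl Spo11-Cre the 5 libraries had 393, 329, 361, 356 and 320 CPM, a mean of 352 ± 28.7 (n = 5). The lowest of these was 1.48 times the highest wt/fl library, and the ratio of the means was 1.70. In fl/del the values were 187, 170, 184 and 213 CPM, a mean of 188 ± 17.8 (n = 4). In fl/del Spo11-Cre they were 431, 344, 410 and 432 CPM, a mean of 404 ± 41.6 (n = 4). The lowest fl/del Spo11-Cre library was 1.62 times the highest fl/del library, and the ratio of the means was 2.15. With Gdf9-Cre the 2 libraries had 200.4 and 179.9 CPM, a mean of 190 ± 14.5 (n = 2). With Zp3-Cre they had 195 and 184 CPM, a mean of 189 ± 7.55 (n = 2). Both of these groups lay within the range of the wt/fl and fl/del libraries. They carried a Cre transgene with another driver, 2 floxed alleles and lower depth, and the cause of any difference was not tested. From high to low, the order of the group means was fl/del Spo11-Cre, wt/fl Spo11-Cre, wt/fl, Gdf9-Cre, Zp3-Cre and fl/del, and wt/fl Spo11-Cre and wt/fl were the only neighbours in this order whose libraries did not overlap. As each library pools 3 oocytes, fewer oocytes with the transcript and less transcript in each cannot be told apart.

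Rbm38 mRNA was likewise at its highest with Spo11-Cre, but it varied more, and its lowest levels were in the fl/fl groups. In wt/fl the libraries had 90.4, 127, 99.99 and 140 CPM, a mean of 114 ± 23.2 (SD, n = 4). In wt/fl Spo11-Cre they had 202, 155, 193, 201 and 279 CPM, a mean of 206 ± 45.4 (n = 5). The groups did not overlap, but the gap was small, the lowest Spo11-Cre library standing at 1.10 times the highest wt/fl library, and the ratio of the means was 1.80. In fl/del the values were close together at 90.2, 87.1, 90.5 and 84.3 CPM, a mean of 88.0 ± 2.89 (n = 4). In fl/del Spo11-Cre they were 175, 193, 154 and 178 CPM, a mean of 175 ± 16.2 (n = 4). The lowest fl/del Spo11-Cre library was 1.70 times the highest fl/del library, and the ratio of the means was 1.99. With Gdf9-Cre the libraries had 44.8 and 37.3 CPM, a mean of 41.1 ± 5.29 (n = 2). With Zp3-Cre they had 65.1 and 68.4 CPM, a mean of 66.8 ± 2.31 (n = 2). All 4 of these fl/fl libraries lay below all 17 others. The order of the means ran from wt/fl Spo11-Cre over fl/del Spo11-Cre, wt/fl, fl/del and Zp3-Cre to Gdf9-Cre. The libraries of wt/fl Spo11-Cre and fl/del Spo11-Cre overlapped, as did those of wt/fl and fl/del, and the other neighbours in the order did not.

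**Figure D1:**
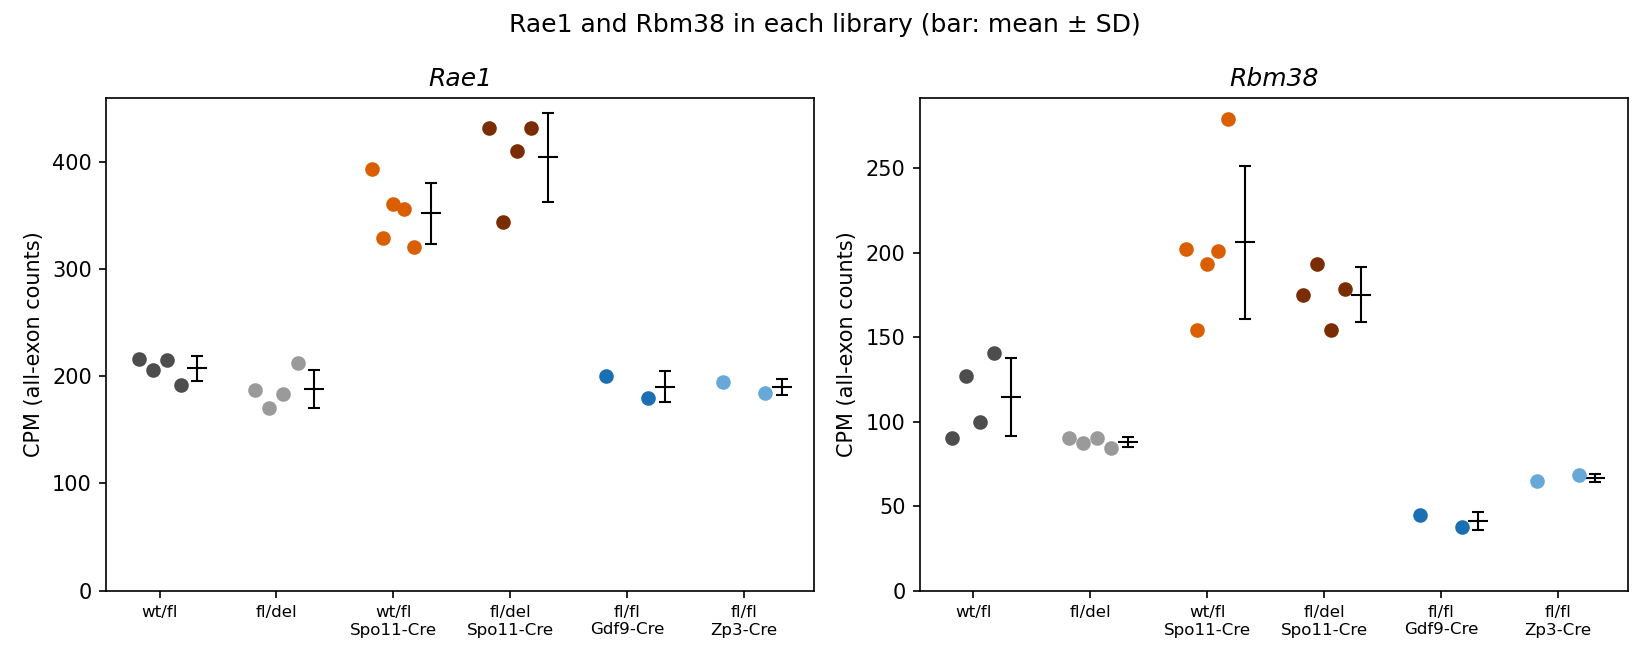
Level of Rae1 (left) and Rbm38 (right) in CPM of the all-exon counts, with 1 point for each of the 21 libraries by group and the mean ± SD beside them. For both genes the 9 Spo11-Cre libraries sit above the 12 others, and for Rbm38 the 4 fl/fl libraries, between 37.3 and 68.4 CPM, sit below all others.

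Because Rae1 and Rbm38 were chosen on the Spo11-Cre contrast, the count of genes that behave in this way is given as background. Of 22383 genes tested over the 17 libraries of the wt/fl and fl/del genotypes, 24 (0.107%) were higher in all 9 Spo11-Cre libraries than in all 8 libraries without Cre. When the fl/fl libraries were included, 11 of 23225 genes (0.0474%) were higher in all 9 than in all 12 others, and Rae1 and Rbm38 were in both sets while Bmp7 and Zbp1 were in neither. In the fit across all genes, the log2 fold change with Spo11-Cre in wt/fl oocytes was 0.79 (SE 0.09) for Rae1 and 0.88 (SE 0.12) for Rbm38, the 27th and 15th highest of 7718 genes with a mean of at least 10 CPM. In fl/del oocytes it was 1.08 (SE 0.09) for Rae1 and 0.97 (SE 0.12) for Rbm38, the 8th and 13th highest of these 7718 genes. In edgeR's quasi-likelihood test with Benjamini-Hochberg adjustment, 2.19% of all genes passed an adjusted p of 0.05 in wt/fl (194 higher and 297 lower) and 0.241% in fl/del (35 higher and 19 lower). The median log2 fold change of all genes was 0.03 and 0.01. Whether the Spo11-Cre difference of either gene was unequal between wt/fl and fl/del oocytes was not tested.

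In the authors' TPM, which corrects for length, the mean level in wt/fl was 199 ± 8.75 for Rae1 and 98.1 ± 21.1 for Rbm38 (SD, n = 4). The TPM of Rae1 divided by that of Rbm38 in the same library was 2.11 ± 0.53 in wt/fl (n = 4) and 1.99 ± 0.42 in wt/fl Spo11-Cre (n = 5). It was 2.41 ± 0.29 in fl/del (n = 4) and 2.62 ± 0.43 in fl/del Spo11-Cre (n = 4). The libraries with and without Spo11-Cre overlapped in this ratio, which was not tested. The ratio was 5.22 ± 0.28 with Gdf9-Cre (n = 2) and 3.19 ± 0.24 with Zp3-Cre (n = 2), and these 4 libraries, from 3.02 to 5.42, lay above all 17 others, whose highest ratio was 2.99.

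**Figure D2:**
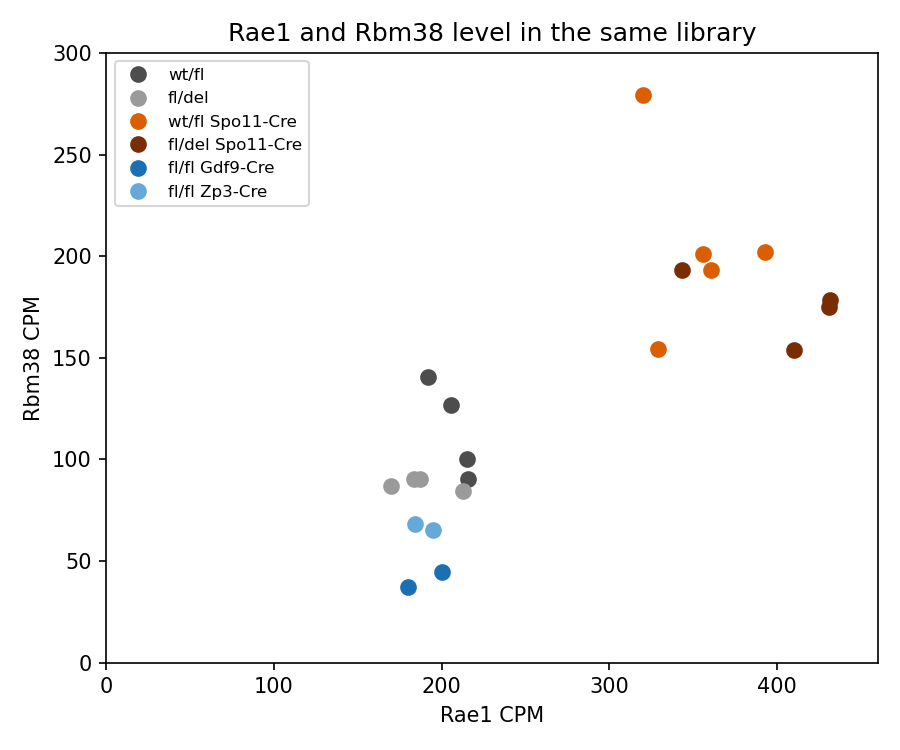
CPM of Rbm38 (vertical axis) against CPM of Rae1 (horizontal axis), 1 point per library, coloured by group. The 9 Spo11-Cre libraries lie apart at 320 CPM or more of Rae1 and 154 CPM or more of Rbm38, and the 4 fl/fl libraries lie at the Rae1 level of the no-Cre libraries but below them in Rbm38.

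The comparison of fl/del with wt/fl sets oocytes with 1 intact Kif11 allele against oocytes with 2, without Cre. The choice of the 7 genes was taken to rest on Spo11-Cre and not on this comparison, which the rule that lists them does not state. Rae1 differed by -0.12 on the log2 scale (SE 0.09, adjusted p = 0.719, edgeR quasi-likelihood test). Rbm38 differed by -0.36 (SE 0.12, adjusted p = 0.426, edgeR). Before adjustment, its p was 0.00436. Its fl/del libraries overlapped wt/fl by a single wt/fl library at 90.4 CPM. Of the 4 genes tested, 0 passed with edgeR and 0 with DESeq2, against 0.0223% of all genes with edgeR, and 1 (Rbm38) had an unadjusted p under 0.05.

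The comparison of fl/del Spo11-Cre with wt/fl Spo11-Cre sets oocytes with no intact Kif11 allele left after Cre has acted against oocytes with 1. The log2 fold change was 0.17 for Rae1 (SE 0.08, adjusted p = 0.702, edgeR) and -0.27 for Rbm38 (SE 0.11, adjusted p = 0.702). Before adjustment, p was 0.0439 for Rae1 and 0.0237 for Rbm38. Of the 4 genes, 0 passed with edgeR and 0 with DESeq2, while 0.0357% of all genes did with edgeR. The libraries of both groups overlapped for Rae1 and for Rbm38.

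Against wt/fl, the fl/fl oocytes with Gdf9-Cre or Zp3-Cre had less Rbm38. The mean over both groups was 53.9 CPM against 114, or 47.1% of the wt/fl mean (35.9% with Gdf9-Cre and 58.4% with Zp3-Cre). The log2 fold change was -1.21 (SE 0.13, adjusted p = 2.57e-09, edgeR over 23225 genes and 21 libraries), and all 4 fl/fl libraries were below all 4 wt/fl libraries. The adjusted p lay between 1.02e-19 and 1.24e-05 over the 16 alternatives run for this comparison. Rae1, its neighbour 4758 bp away, had a log2 difference of -0.22 (SE 0.10, adjusted p = 0.316, edgeR). Before adjustment, the p of Rae1 was 0.0383. Rbm38 was thus the 1 of the 4 genes tested that passed, where 2.79% of all genes did (237 higher and 410 lower). DESeq2 called the same 1 of the 4, and 2 of the 4 (Rae1 and Rbm38) had an unadjusted p under 0.05 with edgeR. The fl/fl genotype, the driver, the mouse, the lower depth and the set of libraries move together in these 4 libraries and cannot be told apart. Their names have another form, and whether they were made together with the others is not stated.

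Bmp7 and Zbp1 were near the limit of detection. Bmp7 had 0.0700, 0.314, 0 and 0.781 CPM in wt/fl and 0, 1.01, 2.22 and 0.119 CPM in fl/del. In wt/fl Spo11-Cre it had 1.95, 0, 0.108, 0.387 and 3.42 CPM, and in fl/del Spo11-Cre 0, 0.226, 0.360 and 0.912 CPM. With Gdf9-Cre it had 0.744 and 0 CPM and with Zp3-Cre 1.54 and 0.488 CPM. The highest library, at 62 counts, was the wt/fl Spo11-Cre library that was also highest in Rbm38, and the groups without and with Spo11-Cre overlapped throughout. The fitted log2 fold change of Bmp7 with Spo11-Cre was 2.03 (SE 1.16) in wt/fl and -1.13 (SE 1.18) in fl/del. Single libraries decided these values: without wt/fl Spo11-Cre replicate 5 the first was 1.06 and without wt/fl replicate 4 it was 3.18. The second was -0.08 without fl/del replicate 3 and -1.99 without fl/del Spo11-Cre replicate 4.

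Zbp1 had at least 1 count in all 21 libraries. It had 0.840, 0.628, 0.531 and 0.156 CPM in wt/fl and 1.47, 0.477, 0.416 and 1.25 CPM in fl/del. In wt/fl Spo11-Cre it had 0.0651, 0.230, 0.704, 1.35 and 1.05 CPM, and in fl/del Spo11-Cre 0.142, 0.283, 0.420 and 0.152 CPM. The Spo11-Cre groups overlapped their wt/fl and fl/del counterparts, the latter by 1 library at 0.420 against a lowest fl/del value of 0.416 CPM. With Gdf9-Cre it had 1.39 and 1.09 CPM and with Zp3-Cre 1.67 and 0.244 CPM. The fitted log2 fold change with Spo11-Cre was 0.37 (SE 0.94) in wt/fl and -1.84 (SE 1.02) in fl/del. In wt/fl it lay between -0.019 (without wt/fl Spo11-Cre replicate 4) and 0.66 (without wt/fl Spo11-Cre replicate 1 or wt/fl replicate 1), so its sign was not stable, and in fl/del it lay between -2.20 and -1.50. In the 3 tested comparisons the adjusted p of Bmp7 and Zbp1 was between 0.741 and 0.896 (edgeR).

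Spo11 itself had 0 counts in all 21 libraries, with and without the transgene that is named after it, and so did Ctcfl. Pck1 had 2 counts in each of 2 wt/fl Spo11-Cre libraries (0.153 and 0.129 CPM) and 0 in the 19 others. In the libraries with a count of 0, a level of these 3 genes up to the limits given above remains possible. No fold change is given for them.

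**Figure D3:**
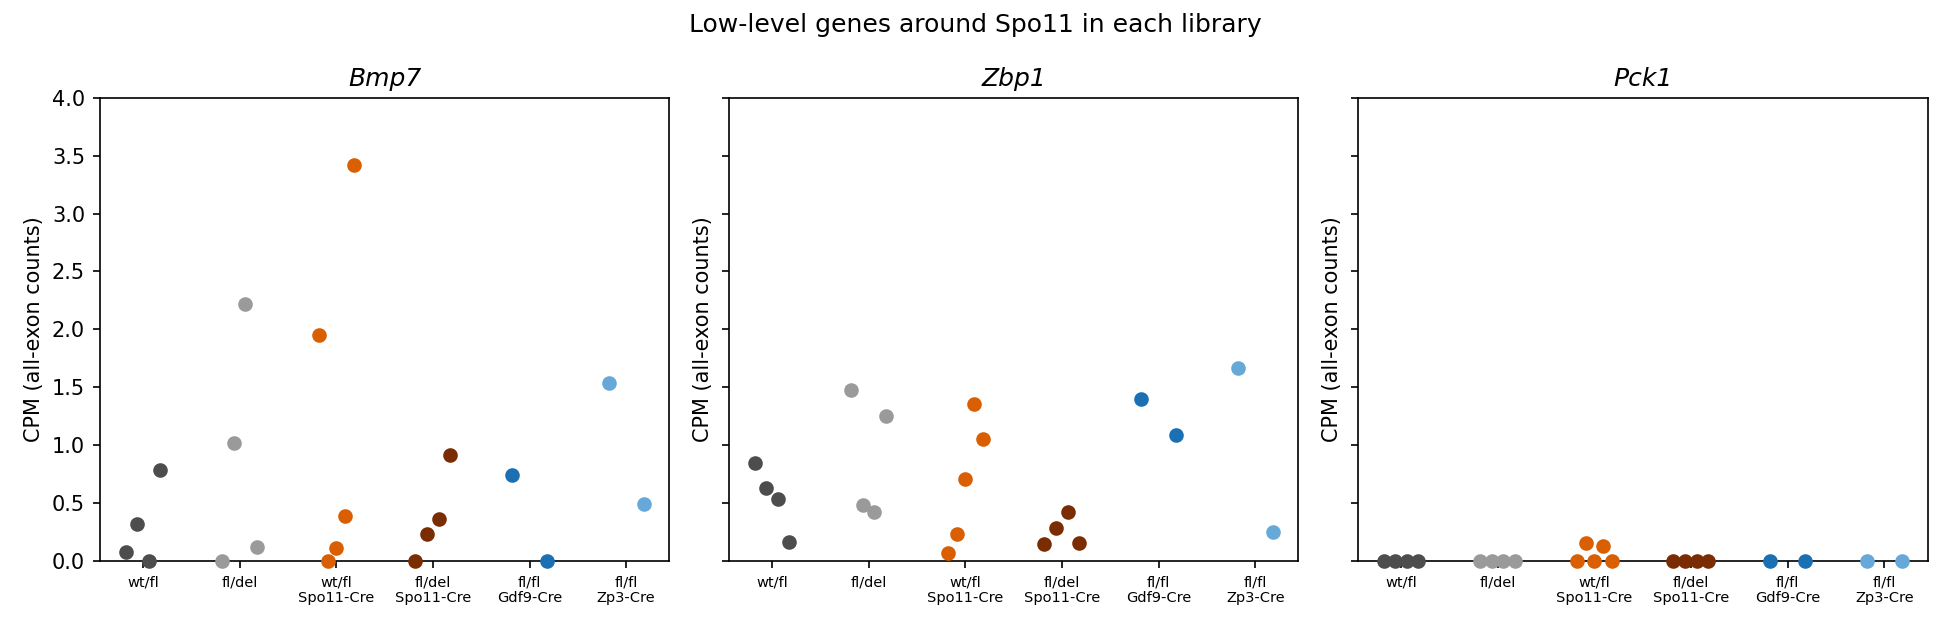
CPM of Bmp7, Zbp1 and Pck1 in each of the 21 libraries by group, on a shared vertical axis from 0 to 4 CPM. The groups overlap for Bmp7 and Zbp1, whose highest libraries are at 3.42 and 1.67 CPM, and Pck1 is above 0 in 2 libraries.

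To describe the surroundings of Spo11, the 12 protein-coding genes on each side of it were listed. Of the 18 that are not among the 7, 13 could be tested and 10 had a mean of at least 1 CPM. With Spo11-Cre in wt/fl, 0 of these 13 passed with edgeR, where 2.19% of all genes did. With DESeq2 1 passed (Aurka, which encodes a spindle pole kinase), and 1 (Aurka) had an unadjusted p under 0.05. In fl/del 0 passed with either tool, where 0.241% of all genes did with edgeR. There 1 (Tfap2c, a transcription factor gene, at a mean of 9.97 CPM) had an unadjusted p under 0.05. Among 13 genes, 0 calls with edgeR is near these shares. The median log2 fold change of the 13 was -0.11 in wt/fl and -0.04 in fl/del. The nearest protein-coding genes with a mean of at least 1 CPM besides Rae1 and Rbm38 were Tfap2c, 419077 bp before Spo11, and 1700021F07Rik, 529009 bp past it. Tfap2c had a log2 fold change of -0.48 (SE 0.26, adjusted p = 0.377, edgeR) in wt/fl and 0.69 (SE 0.27, adjusted p = 0.534) in fl/del. For 1700021F07Rik it was -0.15 (SE 0.19, adjusted p = 0.790) and -0.22 (SE 0.20, adjusted p = 0.849).

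In the tests of fl/del against wt/fl and of fl/del Spo11-Cre against wt/fl Spo11-Cre, 0 of the 13 passed with edgeR or DESeq2. Over all genes 0.0223% and 0.0357% passed with edgeR. Of the 13, 1 (Tfap2c) and 0 had an unadjusted p under 0.05. In fl/fl against wt/fl, where 2.79% of all genes passed, 2 of the 13 did with edgeR and with DESeq2, and 5 had an unadjusted p under 0.05. The calls were falls by 0.35 (SE 0.10, adjusted p = 0.0409, edgeR) for Aurka and by 0.44 (SE 0.13, adjusted p = 0.0431) for Cstf1, which encodes a subunit of the mRNA cleavage stimulation factor. Each of these calls was lost in 9 of 16 alternatives, RLE scaling among them, with an adjusted p of up to 0.428 for Aurka and 0.389 for Cstf1. Leaving out Gdf9-Cre replicate 2, Zp3-Cre replicate 1 or any of wt/fl replicates 2, 3 and 4 ended both calls, and leaving out wt/fl replicate 1 ended that of Aurka.

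**Figure D4:**
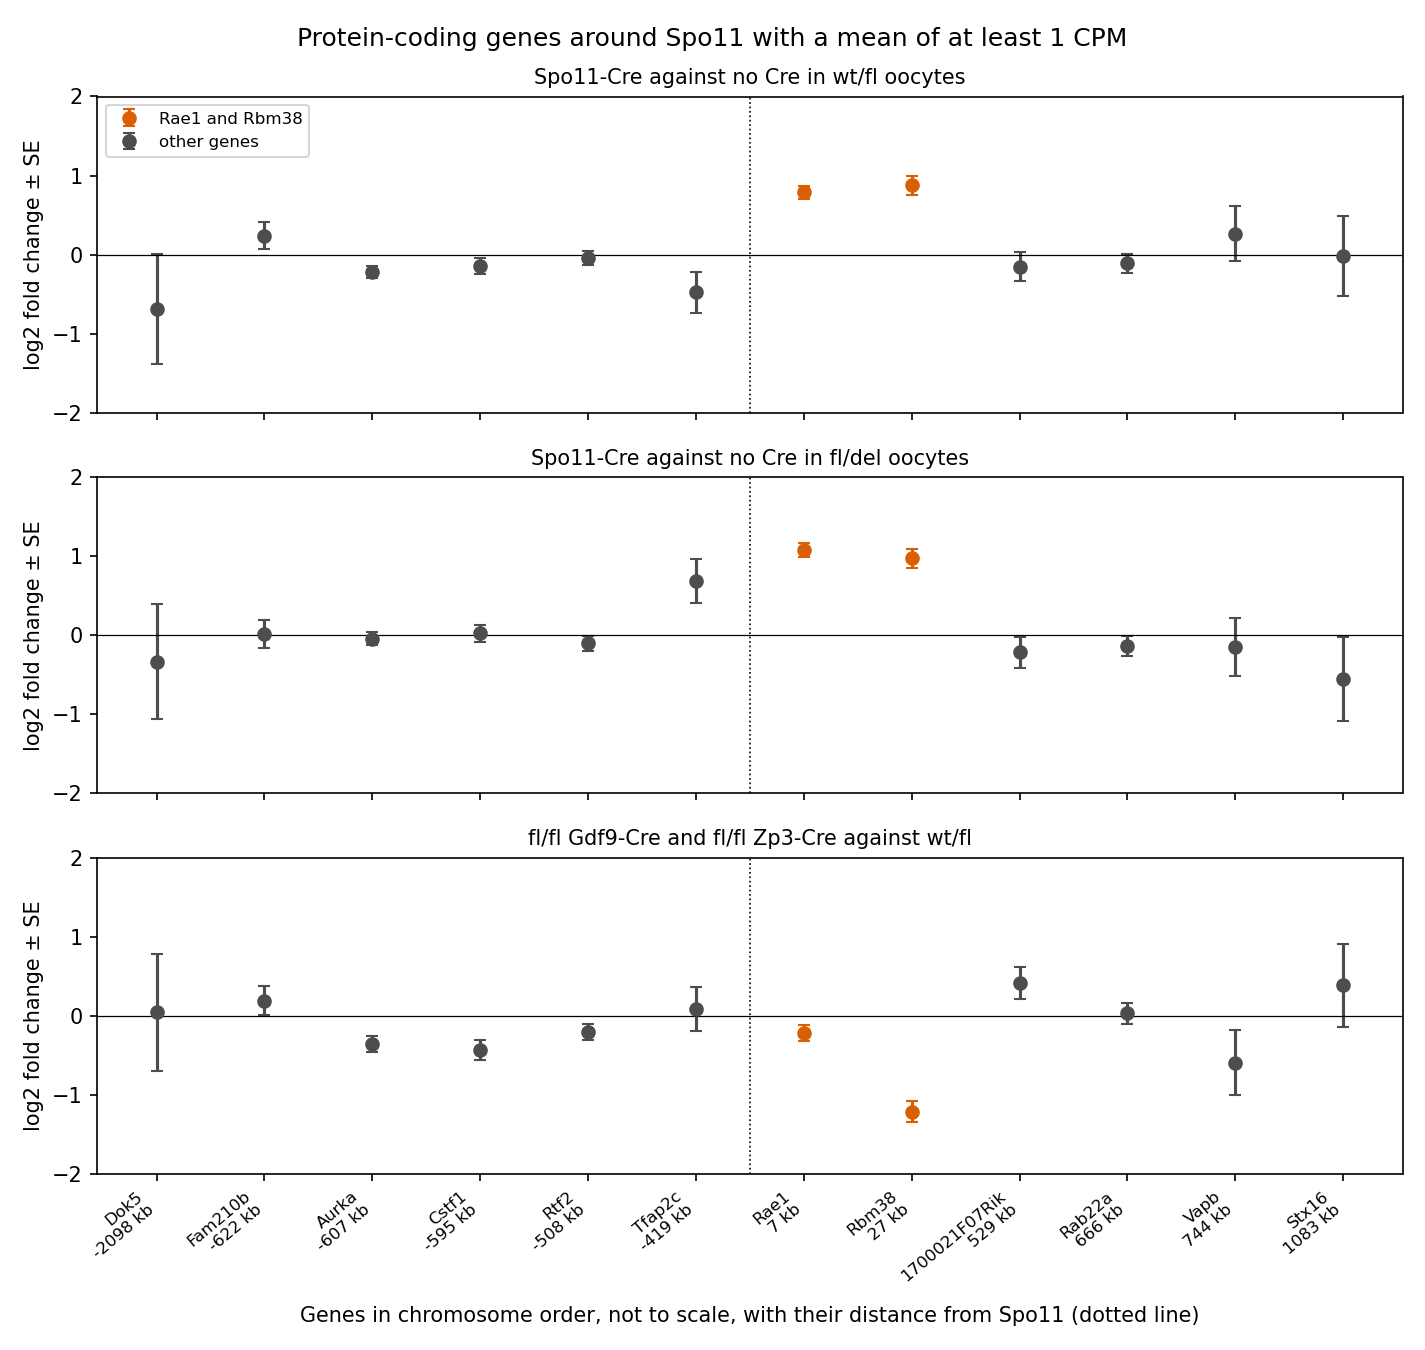
Fitted log2 fold change ± SE (vertical axis) of the 12 protein-coding genes around Spo11 with a mean of at least 1 CPM, in chromosome order and not to scale, for Spo11-Cre within wt/fl (top), Spo11-Cre within fl/del (middle) and fl/fl against wt/fl (bottom). Rae1 and Rbm38 are at 0.79 and 0.88 in the top panel and at 1.08 and 0.97 in the middle one, and in the bottom panel Rbm38 is at -1.21 and Rae1 at -0.22.

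Genes that act with the products of these loci were read from 4 lists. Over all genes, edgeR called 2.19% and 0.241% for Spo11-Cre in wt/fl and fl/del. It called 0.0223% for fl/del against wt/fl, 0.0357% for the same with Spo11-Cre and 2.79% for fl/fl. The share of all genes with an unadjusted p under 0.05 was not counted, so such counts have no background here or for the neighbours. Of 28 genes for RAE1 partners and mRNA export, 3 passed with edgeR for Spo11-Cre in wt/fl oocytes, where 2.19% of all genes did. DESeq2 called 6 of the 28 (Gle1, Numa1 and Alyref besides these 3) and 931 of all 22383 genes. Of the 28, 13 had an unadjusted p under 0.05. The median log2 fold change was -0.18, against 0.03 over all genes. Thoc2, a subunit of the export complex TREX, rose by 0.33 (SE 0.09, adjusted p = 0.0417, edgeR). Fzr1 and Cdc20, the activators of the anaphase-promoting complex, fell by 0.54 (SE 0.12, adjusted p = 0.00621) and by 0.38 (SE 0.10, adjusted p = 0.0212). The call of Fzr1 was lost without wt/fl replicate 2 (adjusted p = 0.0728), that of Cdc20 in 3 of 18 alternatives (adjusted p up to 0.197), among them without replicate 2 of wt/fl or of wt/fl Spo11-Cre. That of Thoc2 was lost in 9 of 18 (adjusted p up to 0.205), among them without wt/fl replicate 2 or 4 or any of wt/fl Spo11-Cre replicates 2 to 5. In fl/del oocytes 0 of the 28 passed with edgeR or DESeq2, and 3 had an unadjusted p under 0.05. Nup98, the nucleoporin partner of RAE1, named here for that role after its values were seen, had 0.09 (SE 0.11, adjusted p = 0.782) in wt/fl and -0.13 (SE 0.11, adjusted p = 0.838) in fl/del.

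In fl/fl against wt/fl, where 2.79% of all genes passed, 4 of the 28 fell with edgeR (median -0.23, against -0.03 over all genes). DESeq2 called 6 of the 28 (Bub3 and Thoc5 besides these 4) and 1075 of all 23225 genes. Of the 28, 11 had an unadjusted p under 0.05. Ddx19a, an RNA helicase of the nuclear pore, fell by 0.69 (SE 0.14, adjusted p = 0.000768, edgeR) and passed in all 16 alternatives. Ddx39b, a helicase of the export complex, fell by 0.51 (SE 0.13, adjusted p = 0.0135), and the nucleoporin gene Nup160 fell by 0.55 (SE 0.15, adjusted p = 0.0273). These calls were lost in 3 and in 7 of 16 alternatives, with an adjusted p of up to 0.185 and 0.429. Both were lost without Gdf9-Cre replicate 2 or Zp3-Cre replicate 1, and that of Nup160 also without wt/fl replicate 1, 2 or 4. Of the 28, 0 passed with edgeR or DESeq2 in fl/del against wt/fl, where 7 had an unadjusted p under 0.05, and 0 in fl/del Spo11-Cre against wt/fl Spo11-Cre, where 2 did.

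Of 24 genes for RBM38 and the p53 family, 20 were tested, and the only call in any of the 5 comparisons, with edgeR or DESeq2, was Mdm4, an inhibitor of p53, which fell by 0.37 in fl/fl (SE 0.09, adjusted p = 0.0142, edgeR), a call lost in 4 of 16 alternatives (adjusted p up to 0.268), among them without wt/fl replicate 1, Gdf9-Cre replicate 2 or Zp3-Cre replicate 1. In the other 4 comparisons 0 passed with edgeR or DESeq2, and 1, 0, 2 and 1 of the 20 had an unadjusted p under 0.05 for Spo11-Cre within wt/fl, Spo11-Cre within fl/del, fl/del against wt/fl and the same with Spo11-Cre. The medians of the 20 were 0.05 and 0.06 with Spo11-Cre in wt/fl and fl/del, and -0.13 in fl/fl.

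Of 23 symbols listed for genes that act with SPO11 in double-strand breaks and their repair, 19 were tested. Some of the untested symbols are second names of genes tested under another symbol, so the list held fewer than 23 genes. Brca2, which loads the recombinases, fell by 0.40 in fl/fl (SE 0.11, adjusted p = 0.0224, edgeR), a call lost in 5 of 16 alternatives (adjusted p up to 0.172), among them without wt/fl replicate 1 or 3 or Gdf9-Cre replicate 2, and it was the only call of this list with edgeR. With Spo11-Cre 0 passed in wt/fl and 0 in fl/del, where 3 and 0 had an unadjusted p under 0.05 and DESeq2 called 1 (Brca2) and 0. In fl/fl DESeq2 called Brca2 alone as well, and 1 of the 19 had an unadjusted p under 0.05, where 2.79% of all genes passed the adjusted test. In fl/del against wt/fl and the same with Spo11-Cre, 0 passed with either tool, and 2 and 1 had an unadjusted p under 0.05.

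Of 22 genes of BMP signalling, the pathway of BMP7, 18 were tested and 0 passed in any of the 5 comparisons with edgeR. In the order used for the p53 family, with fl/fl last, 4, 3, 3, 0 and 0 of them had an unadjusted p under 0.05, and DESeq2 called 1 (Smad4, the shared transducer of the pathway) in the first and 0 in the others.

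The genes whose pattern over the 21 libraries was most like that of Rae1, by Pearson's r of log2(CPM + 1) among 13478 genes with a mean of at least 1 CPM, were Ezh2 (r = 0.91), Cul1 (r = 0.89) and Zcchc7 (r = 0.88), on chromosomes 6, 6 and 4. All 3 were, like Rae1, higher in each Spo11-Cre library than in each other library. Ezh2, a histone methyltransferase gene, had 419 to 492 CPM in the 9 Spo11-Cre libraries and 266 to 354 in the 12 others. Cul1, a scaffold gene of SCF ubiquitin ligases, had 1903 to 2199 CPM against 952 to 1421. Zcchc7, an RNA surveillance gene, had 86.0 to 112 CPM against 48.1 to 71.7. Rbm38 was 9th in this order (r = 0.79). The pair most like Rbm38 was Raly (r = 0.87) and Fkbpl (r = 0.86), on chromosomes 2 and 17, and Rae1 was 18th. The ranges of both overlapped between Spo11-Cre and the other libraries, as in Raly, an RNA-binding protein gene, with 15.6 to 33.3 CPM against 2.50 to 31.1. The libraries share groups, depth and mice, so these values of r describe the pattern and are given without a p.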

How the data were processed

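Poly(A) RNA of 3 oocytes per library was amplified with the SMART-Seq v4 kit (13 cycles) and made into unstranded Nextera XT libraries. Per the submitters' notes and methods, fastp trimming was followed by alignment with HISAT2 2.2.1 to GRCm38, and the authors deposited whole-number counts per gene from featureCounts 2.0.3 on Ensembl release 93, in which every gene other than Kif11 is counted over all exons, and TPM values computed by the authors. The methods describe 17 of the 21 libraries. Symbols and positions came from GENCODE, promoters from RefSeq.

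CPM was computed on library totals. The 4 comparisons of wt/fl and fl/del groups were fitted over 17 libraries and fl/fl against wt/fl over 21, in edgeR 4.0.16 (R 4.3.3; TMM, glmQLFit, glmQLFTest) for genes with a count in at least 3 libraries, with Benjamini-Hochberg adjusted p under 0.05. The SE printed with a log2 fold change is its absolute value divided by the square root of the test's F statistic. DESeq2 1.42.0 was an alternative. The code was tested on simulated data. Other steps used Python 3.11.15 with pandas 2.3.3. No pair of libraries was identical.

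The 7 genes and the lists were chosen with earlier results of these data known. Besides the 7 genes and Kif11, a neighbour was named if it passed in any comparison, and up to 3 genes per direction were named from each list, those with the lowest adjusted p. Tfap2c, 1700021F07Rik, Nup98, Smad4 and the list genes called with DESeq2 alone were named after their values were seen. A further gene that the rule on likeness to Rbm38 names is not reported here. The tables with Kif11 counted over exon 1 were not used.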

Additional observations from a re-analysis of the deposited data

How the results depend on the processing

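The fitted differences of Rae1 and Rbm38 kept their direction in every alternative run in all 5 comparisons, and their side of the threshold in the 3 that were tested. The direction held also in the ratio of mean CPM in wt/fl with and without Spo11-Cre, which was added after the data were seen (0.76 and 0.85 on the log2 scale). As percent of wt/fl, the Zp3-Cre level moved by more than its SD under TMM or RLE scaling, to 85.0 and 86.3 for Rae1 and to 54.3 and 55.1 for Rbm38. Leaving out single libraries gave Rbm38 71.9 to 83.3% in fl/del and 54.5 to 63.1% with Zp3-Cre. In fl/fl against wt/fl, Bmp7 lay between -1.69 (without fl/fl Gdf9-Cre replicate 1) and 2.12, and Zbp1 between -0.017 (without fl/fl Zp3-Cre replicate 1) and 1.30 on the log2 scale. The cause was not tested.

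For Spo11-Cre within wt/fl, Spo11-Cre within fl/del, fl/del, fl/del Spo11-Cre and fl/fl, edgeR called 491, 54, 5, 8 and 647 of all genes, and DESeq2 931, 91, 21, 14 and 1075. Without the filter on low counts the first 4 became 742, 134, 80 and 39, and filterByExpr gave 2 for fl/del and 4 for fl/del Spo11-Cre. All 21 libraries in the fit gave 252 for Spo11-Cre in wt/fl and 5 for fl/del Spo11-Cre, and only the compared groups gave 238 for fl/fl. Leaving out single libraries gave 179 to 575 for Spo11-Cre within wt/fl, the count falling to 179 and 266 without wt/fl replicates 2 and 4 and to 263 without wt/fl Spo11-Cre replicate 5. It gave 37 to 60 for Spo11-Cre within fl/del and 1 to 18 for fl/del, with 1 and 18 without fl/del replicates 3 and 1 and 10 without wt/fl replicate 3. For fl/del Spo11-Cre it gave 3 to 12, with 3 or 4 without wt/fl Spo11-Cre replicate 2 or 4 or fl/del Spo11-Cre replicate 1 or 2. For fl/fl it gave 303 to 1353, with 303 and 1353 without Zp3-Cre replicates 1 and 2, 392 without Gdf9-Cre replicate 2 and 408 without wt/fl replicate 2.

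Replicate numbers were not taken to pair the samples. In 4 of 24 same-numbered pairs the correlation of deviations from the group means was over 0.1 (median 0.03). The same held in 11 of 84 pairs with different numbers (median -0.0045). The replicate block gave 143 calls for Spo11-Cre in fl/del, 96 for fl/del and 29 for fl/del Spo11-Cre, against 54, 5 and 8 without it. The replicate block changed no call of Rae1 or Rbm38 in the 3 comparisons tested. It turned the Spo11-Cre difference of Zbp1 within wt/fl from 0.37 to -0.04. Depth limits Spo11, Ctcfl, Pck1, Bmp7 and Zbp1.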
